A study of Mus musculus with 6 samples.

Results

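The 10 genes described here make, break down or bind hyaluronan in mouse lung. They are the synthase genes Has1, Has2 and Has3, the hyaluronidase genes Hyal1 and Hyal2, and the binding protein genes Cd44, Vcan, Hapln3, Tnfaip6 and Stab1. They were chosen by name with earlier results of these data known. All 10 were found among the 24061 gene rows of the count table. RNA from lung was sequenced in 2 groups of 3 libraries. By their labels, both groups of mice had the CCSP element. The CCSP/TGFalpha mice had a TGFalpha transgene with it, and the CCSP/- mice, the controls, did not. All mice in both groups had been given doxycycline for 3 weeks. The CCSP promoter, taken from a secretory protein gene of club cells, directs transgenes to lung epithelium, and TGFalpha is a ligand of the epidermal growth factor receptor. None of the sources used here gives strain, age, the species of the TGFalpha sequence or whether each library came from 1 animal, so the p-values measure the spread between these libraries, which may be technical. The comparison asks which transcripts of hyaluronan metabolism differed with the TGFalpha transgene in lungs exposed to the same drug.

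Hyaluronan is a long unbranched sugar polymer of the extracellular matrix. Synthases in the plasma membrane build it from UDP-glucuronic acid and UDP-N-acetylglucosamine and extrude it while it grows. Hyaluronidases cut it into fragments, and binding proteins tie it to proteoglycans such as versican or to receptors on cells such as CD44. In lung it holds water and swells the tissue, and it is known to accumulate during injury and fibrosis.

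Libraries held 21479006 to 24914322 counts each. Skeletal muscle markers stood apart in replicate 1 of both groups: the summed level of 7 such genes was 2278 CPM (counts over scaled library size, 1 count being 0.0401 to 0.0458 CPM) in CCSP/TGFalpha replicate 1 and 1333 CPM in CCSP/- replicate 1, and between 53.0 and 69.6 CPM in the other libraries. CCSP/- replicate 3 stood apart in 4 mesothelial markers, with a summed level of 22.4 CPM against 199 to 361 CPM elsewhere. The mouse Tgfa row was at 27.5 ± 2.09 CPM in CCSP/TGFalpha lungs and 25.8 ± 2.94 CPM in CCSP/- lungs (SD, n = 3 each; edgeR adjusted p = 0.739), so this row does not check the label. Of 16089 genes tested with edgeR, 8.33% passed an adjusted p of 0.05, 5.03% upward and 3.29% downward. That count of 1340 genes fell with any 1 library left out. It was 1002, 307 and 238 without CCSP/- replicates 1, 2 and 3 in turn. Without CCSP/TGFalpha replicates 1, 2 and 3 in turn it was 411, 564 and 1088. Such fits hold fewer libraries, so a fall does not show that 1 library carried the calls.

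In CCSP/TGFalpha lungs transcripts of the hyaluronan synthase Has2 and of the hyaluronan-binding proteoglycan versican were far above the CCSP/- level, while those of the hyaluronidase Hyal1 were below it. Has2 was 8.90 times and Vcan 25.9 times as high by the ratio of mean levels, and Hyal1 was at 0.387 of its CCSP/- mean. The other 7 members did not pass the test: Has1, Has3, Hyal2, Cd44, Hapln3, Tnfaip6 and Stab1. Among the 10 members 2 rose and 1 fell, beside 5.03 and 3.29% of all genes tested. The groups did not overlap for 4 of the 10, namely Has2, Vcan and Tnfaip6 above and Hyal1 below, against 33.2% of all tested genes with no overlap, 17.7% above and 15.5% below. The median log2 fold change was -0.20 over the members and 0.01 over all tested genes; without CCSP/- replicate 2 the median of the members was 0.15, and without CCSP/- replicate 1 and CCSP/TGFalpha replicate 3 in turn it was -0.075 and -0.077. Of 45 other genes of the pathway 33 could be tested, and 5 rose and 1 fell: Cemip, Gfpt2, Ugdh, Adamts4 and Adamts9 above, Lyve1 below.

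**Figure D1:**
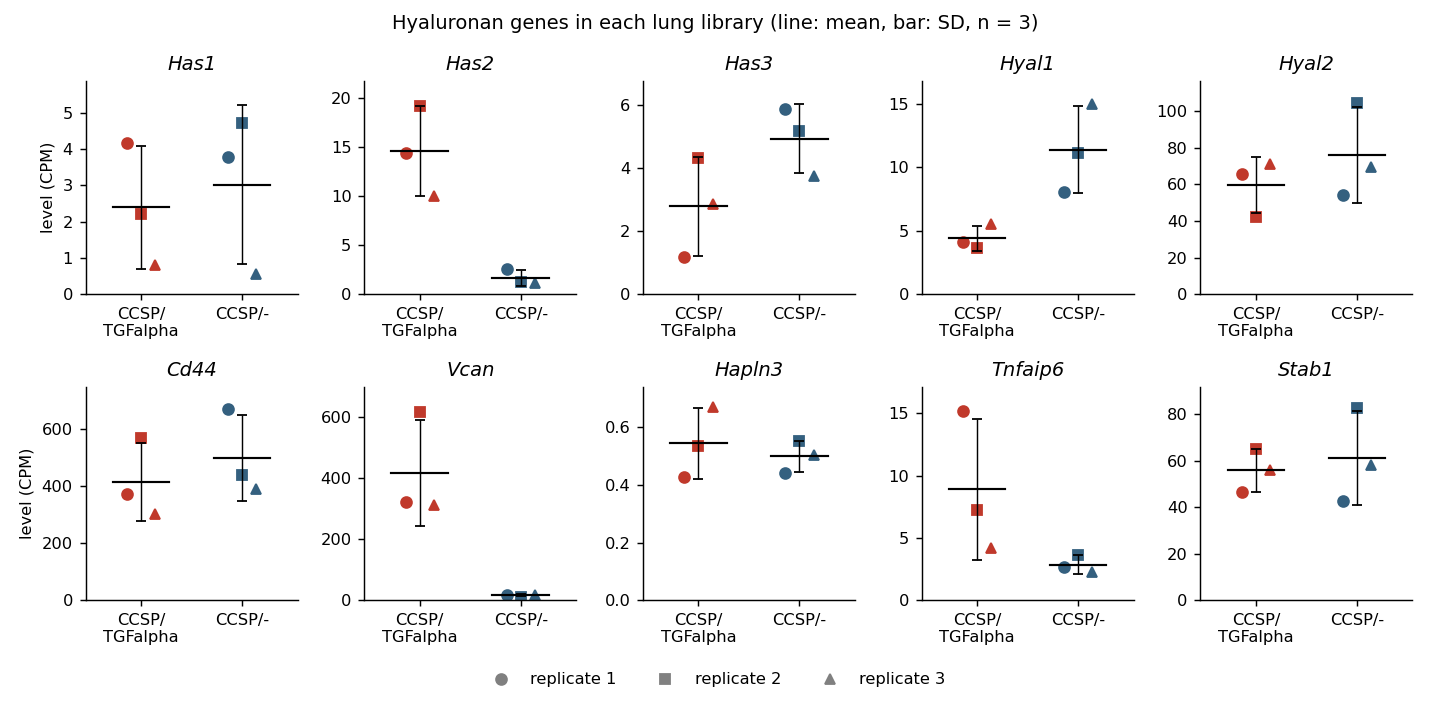
Level of each of the 10 hyaluronan genes in CPM (y axis, each panel with its own scale from 0) in the 3 CCSP/TGFalpha libraries (left, red) and the 3 CCSP/- libraries (right, blue); horizontal lines are means and bars SD. The red points of Has2 (10.01 to 19.2 CPM) and Vcan (314 to 617 CPM) lie far above the blue ones, those of Tnfaip6 lie above with a wide spread, those of Hyal1 lie below, and the other 6 panels overlap.

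Upstream sequence is shown for 5 genes with an entry in the RefSeq promoter table, so that a reader can see what lies before a start site of each. They are Vcan, Tnfaip6 and Hyal1, the members with an entry whose groups did not overlap, and Cemip and Gfpt2, the 2 other pathway genes with the smallest adjusted p, all chosen after their values were seen. The stretches come from RefSeq on GRCm38.p6, run 5′ to 3′ on the gene's own strand and end at the start site, or before the first exon annotated in GENCODE where that begins earlier. They cover chr13:89742513-89742762 on the minus strand for Vcan, chr7:84086506-84086755 on the minus strand for Cemip, chr11:49793905-49794154 on the plus strand for Gfpt2, chr2:52037863-52038008 on the plus strand for Tnfaip6 and chr9:107576700-107576926 on the plus strand for Hyal1. The Vcan stretch lies inside the RefSeq span of its gene, which reaches 89743027. The RefSeq span of Cemip reaches 84086693, so its stretch lies partly inside the gene. Both genes therefore begin farther upstream in RefSeq than the start site used here. Capitals mark matches to the motifs searched.
Vcan: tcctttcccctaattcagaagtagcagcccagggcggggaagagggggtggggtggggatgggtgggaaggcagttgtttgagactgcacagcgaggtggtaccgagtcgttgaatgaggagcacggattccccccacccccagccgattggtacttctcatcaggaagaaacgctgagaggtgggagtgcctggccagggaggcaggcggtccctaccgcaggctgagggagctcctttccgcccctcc
Cemip: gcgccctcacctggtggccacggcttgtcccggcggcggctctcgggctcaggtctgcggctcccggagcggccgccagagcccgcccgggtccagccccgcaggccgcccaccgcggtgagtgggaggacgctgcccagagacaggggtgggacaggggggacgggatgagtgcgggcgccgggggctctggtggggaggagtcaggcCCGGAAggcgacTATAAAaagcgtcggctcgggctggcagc
Gfpt2: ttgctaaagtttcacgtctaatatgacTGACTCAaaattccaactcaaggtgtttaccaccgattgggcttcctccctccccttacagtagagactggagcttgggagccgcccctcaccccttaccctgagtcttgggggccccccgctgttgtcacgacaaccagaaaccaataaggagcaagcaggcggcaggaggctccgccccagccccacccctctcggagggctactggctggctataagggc
Tnfaip6: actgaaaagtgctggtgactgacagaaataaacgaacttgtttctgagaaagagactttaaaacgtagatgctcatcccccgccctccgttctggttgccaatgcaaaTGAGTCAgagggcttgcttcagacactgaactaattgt
Hyal1: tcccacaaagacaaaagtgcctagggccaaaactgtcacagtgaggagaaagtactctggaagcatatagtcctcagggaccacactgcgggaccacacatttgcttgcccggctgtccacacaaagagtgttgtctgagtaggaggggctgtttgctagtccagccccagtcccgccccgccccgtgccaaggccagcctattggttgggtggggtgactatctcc

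Each motif was searched on both strands in the 250 bases before the start. The motifs were the AP-1 site TGANTCA, the ETS core CCGGAA, the TEAD element GGAATG and the TATA box TATAAA, and none of the matches printed overlap each other. Among 32851 such windows over all genes, 6.75% held the AP-1 site, 12.0% the ETS core, 12.6% the TEAD element and 12.4% the TATA box. The table matched 8 members, all but Has2 and Has3. Of these 8, 1 held the AP-1 site, 0 the ETS core, 2 the TEAD element and 1 the TATA box. Tnfaip6 has its AP-1 match 142 bases before the start and a TEAD match 8 bases before it, in the part not printed, and Gfpt2 has an AP-1 match 223 bases before. Cemip holds a TATA box 29 bases and an ETS core 41 bases before the start used, and the Vcan and Hyal1 windows hold none of the 4 motifs. Of 34 other pathway genes matched, 3 held the AP-1 site, 4 the ETS core, 6 the TEAD element and 3 the TATA box.

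The synthases are multi-pass membrane enzymes, and Has2 is the one that mouse embryos cannot do without. Has2 (gene ID 15117; GRCm38, chromosome 15, 56665627 to 56694546) had 339, 466 and 239 counts in CCSP/TGFalpha replicates 1 to 3, against 65, 26 and 24 counts in CCSP/- replicates 1 to 3. The lowest CCSP/TGFalpha library was well above the highest CCSP/- library, which was replicate 1. On the scaled level this was 14.4, 19.2 and 10.01 CPM in CCSP/TGFalpha lungs, against 2.61, 1.19 and 1.096 CPM in CCSP/- lungs. Has2 rose by a log2 fold change of 3.14 ± 0.42 (SE; 95% interval 2.19 to 4.09; edgeR adjusted p = 0.00596), the 103rd highest of 16089 genes tested. It passed without any 1 library, with log2 fold changes of 2.90 to 3.65, and was at 3.66 with replicate 1 of both groups left out. Has2os, the antisense gene of Has2, shares an exon stretch of 98 bases with it on the opposite strand, and the strand setting of the counting was not given. It had 29, 28 and 0 counts in CCSP/TGFalpha replicates 1 to 3 and 4, 6 and 0 counts in CCSP/- replicates 1 to 3, too few to be tested.

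Has1 and Has3 did not pass, and their values scattered over the libraries. Has1 (gene ID 15116; chromosome 17, 17833691 to 17855589), the synthase that needs the highest substrate supply in biochemical assays, was at 4.17, 2.22 and 0.796 CPM in CCSP/TGFalpha replicates 1 to 3 and at 3.77, 4.72 and 0.548 CPM in CCSP/- replicates 1 to 3. Replicate 3 was the lowest of each group. Its log2 fold change was -0.33 with a 95% interval of -2.12 to 1.45, so no difference was detectable at this spread (edgeR adjusted p = 0.812). Has3 (gene ID 15118; chromosome 8, 106870242 to 106882902) was at 1.19, 4.32 and 2.85 CPM in CCSP/TGFalpha lungs, against 5.86, 5.18 and 3.74 CPM in CCSP/- lungs. The groups overlapped by 1 library, and the log2 fold change was -0.82 (95% interval -1.87 to 0.23; edgeR adjusted p = 0.287). Exons of Has3 and of its neighbour Chtf8 on the opposite strand overlap by up to 352 bases.

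The share of Has2 among the synthase transcripts was higher in every CCSP/TGFalpha library than in any CCSP/- library. Per kilobase of exon, the 3 synthase genes together were at 5.58, 6.26 and 3.19 CPM per kb in CCSP/TGFalpha replicates 1 to 3, against 3.34, 3.35 and 1.11 CPM per kb in CCSP/- replicates 1 to 3, so the summed levels overlapped. Has2 made up 60.99, 72.3 and 74.1% of that sum in CCSP/TGFalpha lungs and 18.5, 8.405 and 23.4% in CCSP/- lungs. In CCSP/TGFalpha lungs Has2 was the first of the 3 in each library, whereas in CCSP/- lungs Has1 led in replicates 1 and 2 and Has3 in replicate 3. These shares rest on 326 to 625 counts of the 3 genes together in CCSP/TGFalpha libraries and on 118 to 305 counts in CCSP/- libraries.

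**Figure D2:**
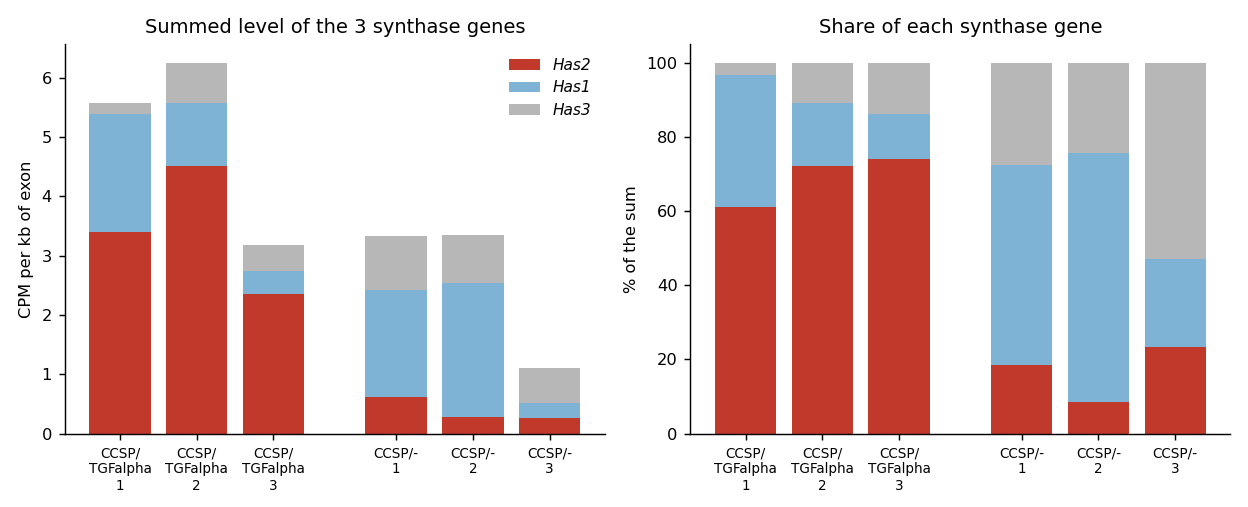
Left, summed level of Has2 (red), Has1 (blue) and Has3 (grey) in CPM per kilobase of exon in each library; right, the share of each gene in that sum in percent. The red part fills 60.99 to 74.1% of the CCSP/TGFalpha columns and 8.405 to 23.4% of the CCSP/- columns, while the column heights overlap.

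Within the CCSP/- group mesothelial markers varied between libraries alongside Has1. In CCSP/- replicate 3, where Has1 was at 0.548 CPM, Msln was at 11.4, Upk3b at 6.57, Lrrn4 at 3.65 and Wt1 at 0.731 CPM. In CCSP/- replicates 1 and 2, with Has1 at 3.77 and 4.72 CPM, Msln was at 68.1 and 70.6 CPM and Upk3b at 83.2 and 83.7 CPM. CCSP/TGFalpha replicate 3 did not follow this: its Has1 level was 0.796 CPM, while Msln was at 54.0 and Upk3b at 85.8 CPM. Of the 4 mesothelial markers 1, Wt1, rose, and their part in the Has1 values was not tested. Without CCSP/- replicate 3 the log2 fold change of Has1 was -0.83, and without CCSP/- replicate 2 it was 0.14, on the other side of 0, as it was without CCSP/TGFalpha replicate 3 (0.08).

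**Figure D3:**
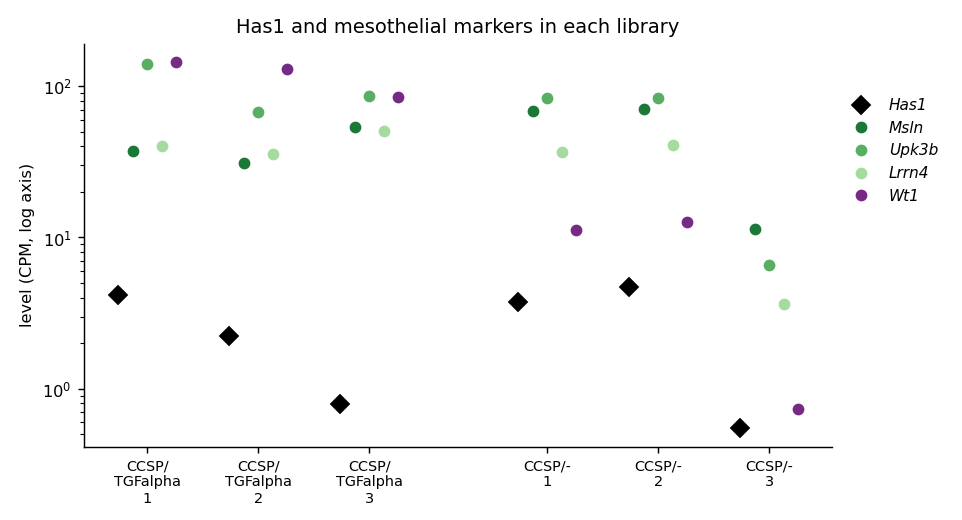
Level of Has1 (black diamonds) and of the mesothelial markers Msln, Upk3b, Lrrn4 (greens) and Wt1 (purple) in CPM on a log axis in each of the 6 libraries. All 5 genes are lowest in CCSP/- replicate 3; in CCSP/TGFalpha replicate 3 Has1 (0.796 CPM) and Wt1 (85.0 CPM) are the lowest of their group, while Msln and Lrrn4 are the highest.

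Among genes that supply the 2 sugar nucleotides, 2 of 7 tested rose and none fell, beside 5.03 and 3.29% of all genes tested. Gfpt2, an isoform of the amidotransferase that starts the hexosamine pathway, had 1285, 1352 and 744 counts in CCSP/TGFalpha lungs, against 350, 268 and 181 counts in CCSP/- lungs. No library of either group came near the other group. Its log2 fold change was 2.03 ± 0.28 (SE; edgeR adjusted p = 0.00706). Gfpt1, the other isoform, was at 133, 186 and 151 CPM in CCSP/TGFalpha lungs and 187, 140 and 149 CPM in CCSP/- lungs, a log2 fold change of -0.02 with a 95% interval of -0.43 to 0.40. Per kilobase, Gfpt2 accounted for 33.0 to 49.4% of the Gfpt1 and Gfpt2 level in CCSP/TGFalpha lungs and for 11.7 to 17.4% in CCSP/- lungs. Ugdh, the dehydrogenase that makes UDP-glucuronic acid, was at 115, 127 and 96.6 CPM in CCSP/TGFalpha lungs, against 63.8, 71.9 and 61.4 CPM in CCSP/- lungs. Its groups were apart, and its rise was smaller (log2 fold change 0.78 ± 0.16; edgeR adjusted p = 0.0265). Ugdh passed only without CCSP/TGFalpha replicate 3 among fits with 1 library left out (adjusted p 0.0266); without CCSP/- replicates 1, 2 and 3 or CCSP/TGFalpha replicates 1 and 2 its edgeR adjusted p was 0.0612, 0.0742, 0.131, 0.0666 and 0.0715. Ugp2, Gnpnat1, Pgm3 and Uap1, which encode the remaining steps examined, had log2 fold changes between -0.01 and 0.24 and did not pass.

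Genes for breaking hyaluronan down did not move as a set. Hyal1 (gene ID 15586; chromosome 9, 107576950 to 107581699) encodes a lysosomal hyaluronidase. It had 96, 88 and 132 counts in CCSP/TGFalpha lungs, against 201, 243 and 328 counts in CCSP/- lungs. All CCSP/TGFalpha libraries were below all CCSP/- libraries, and CCSP/- replicate 3 was the highest. Hyal1 fell by 1.37 ± 0.30 on the log2 scale (SE; 95% interval -2.06 to -0.68; edgeR adjusted p = 0.0339). That call was lost without CCSP/- replicate 2, CCSP/- replicate 3, CCSP/TGFalpha replicate 1 or CCSP/TGFalpha replicate 2, with edgeR adjusted p of 0.107, 0.142, 0.104 and 0.0844, and with replicate 1 of both groups left out (0.0580); the log2 fold change stayed between -1.57 and -1.13. Hyal1 shares up to 819 bases of exon on the same strand with Naa80 and 118 bases with Hyal3, and how shared reads were counted was not given. Naa80 was at 8.71, 6.54 and 11.2 CPM in CCSP/TGFalpha lungs and at 10.9, 17.5 and 17.2 CPM in CCSP/- lungs (log2 fold change -0.78; edgeR adjusted p = 0.111). Hyal1 is therefore reported with that uncertainty.

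Hyal2 (gene ID 15587; chromosome 9, 107567873 to 107572778), a hyaluronidase anchored at the cell surface, lies next to Hyal1 and was the more abundant of the pair. It was at 65.5, 42.1 and 70.8 CPM in CCSP/TGFalpha lungs and 53.9, 105 and 69.4 CPM in CCSP/- lungs. The groups overlapped, with the highest value in CCSP/- replicate 2 and a log2 fold change of -0.35 (95% interval -0.99 to 0.29; edgeR adjusted p = 0.451). Per kilobase, Hyal1 was 5.10 to 6.90% of the Hyal1 and Hyal2 level in CCSP/TGFalpha lungs and 8.41 to 15.7% in CCSP/- lungs. Hyal3 did not pass either (log2 fold change -0.44), and Hyal4, Hyal5 and Spam1 had 0 counts in every library.

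Cemip, which encodes a hyaluronan-degrading protein of the cell surface and endoplasmic reticulum, had 110, 148 and 108 counts in CCSP/TGFalpha lungs, against 5, 9 and 8 counts in CCSP/- lungs. The lowest CCSP/TGFalpha library held more than all CCSP/- libraries together. Its log2 fold change was 3.95 ± 0.41 (SE; edgeR adjusted p = 0.00232), and it passed without any 1 library (3.68 to 4.16). The related gene Cemip2 was at 105, 127 and 186 CPM in CCSP/TGFalpha lungs and 182, 294 and 236 CPM in CCSP/- lungs, and the groups overlapped by a narrow margin (log2 fold change -0.77, 95% interval -1.35 to -0.18; edgeR adjusted p = 0.0991). Per kilobase Cemip2 remained the more abundant of the pair, at 20.8 ± 6.24 against 0.717 ± 0.121 CPM per kb in CCSP/TGFalpha lungs (SD, n = 3). Gusb and Hexa, which encode lysosomal enzymes that take sugars off the ends of the fragments, had log2 fold changes of 0.11 and 0.05 and did not pass.

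Versican is a large chondroitin sulfate proteoglycan whose N-terminal domain binds hyaluronan. Vcan (gene ID 13003; chromosome 13, 89655309 to 89743027) had 7558, 15001 and 7497 counts in CCSP/TGFalpha lungs, against 459, 268 and 387 counts in CCSP/- lungs. CCSP/TGFalpha replicate 2 was the highest library and the 2 others were close to each other. Vcan rose by a log2 fold change of 4.69 ± 0.34 (SE; 95% interval 3.92 to 5.47; edgeR adjusted p = 0.000621), the 36th highest of all genes tested. Per kilobase of exon it was at 31.1 ± 12.9 CPM per kb in CCSP/TGFalpha lungs and 1.203 ± 0.25 CPM per kb in CCSP/- lungs (SD, n = 3 each). Among 15198 tested genes with a known exon length, that placed it above 86.3% of genes in CCSP/TGFalpha lungs and above 15.9% in CCSP/- lungs. Gene counts do not separate its splice forms, which differ in the sugar-bearing exons.

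The other lecticans and link proteins were scarce. Hapln3 (gene ID 67666; chromosome 7, 79117027 to 79133173), a link protein that stabilises the bond between hyaluronan and versican, had 10, 13 and 16 counts in CCSP/TGFalpha lungs and 11, 12 and 11 counts in CCSP/- lungs. The groups overlapped, and the 95% interval of its log2 fold change was -1.14 to 1.40 (edgeR adjusted p = 0.906), so a change of up to about that size was not detectable at this depth. Hapln1, Hapln2, Hapln4, Acan and Bcan had 0 to 9 counts in any library and were not tested. Ncan, which encodes neurocan, had 9, 8 and 3 counts in CCSP/TGFalpha lungs, against 20, 32 and 14 counts in CCSP/- lungs, and did not pass (edgeR adjusted p = 0.131).

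Tnfaip6 (gene ID 21930; chromosome 2, 52038113 to 52056681) encodes TSG-6, a secreted protein that transfers heavy chains of inter-alpha-inhibitor onto hyaluronan. It had 357, 177 and 101 counts in CCSP/TGFalpha lungs and 67, 80 and 49 counts in CCSP/- lungs. Each CCSP/TGFalpha library was above each CCSP/- library, but the spread among the CCSP/TGFalpha libraries was wide, at 15.2, 7.28 and 4.23 CPM. The log2 fold change was 1.63 ± 0.47 (SE; 95% interval 0.56 to 2.70) and missed the threshold (edgeR adjusted p = 0.0690). It passed without CCSP/TGFalpha replicate 3 (0.0348) and with DESeq2 (0.00576), and was at a log2 fold change of 1.01 without CCSP/TGFalpha replicate 1, the library with the highest value and the muscle signal (edgeR adjusted p = 0.199). Of 6 tested genes for heavy chains and the cross-linker Ptx3, none passed with edgeR, and none had an unadjusted p under 0.05. Itih5 had the smallest adjusted p (0.313), with a log2 fold change of 0.64. Itih4 was at 126, 477 and 111 CPM in CCSP/TGFalpha lungs and at 469, 141 and 102 CPM in CCSP/- lungs, so 1 library of each group was far above the rest. Ambp, which encodes the light chain bikunin, had 8, 7 and 8 counts in CCSP/TGFalpha lungs and 0 counts in all 3 CCSP/- lungs, at least 7.34-fold higher against a floor of 3 counts over the CCSP/- group, and was too low to be tested.

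The hyaluronan receptors among the members overlapped between the groups and did not pass. Cd44 (gene ID 12505; chromosome 2, 102811141 to 102901669), the main cell surface receptor for hyaluronan on leukocytes and many other cells, was at 373, 568 and 303 CPM in CCSP/TGFalpha lungs and at 671, 437 and 388 CPM in CCSP/- lungs. The groups overlapped, with the highest value in CCSP/- replicate 1 and the next in CCSP/TGFalpha replicate 2. The log2 fold change was -0.27 with a 95% interval of -0.92 to 0.39 (edgeR adjusted p = 0.582). Cd44 was the most abundant member per kilobase in both groups, at 73.3 ± 24.3 CPM per kb in CCSP/TGFalpha lungs and 88.3 ± 26.8 CPM per kb in CCSP/- lungs (SD, n = 3 each). With replicate 1 of both groups left out its log2 fold change was 0.069, on the other side of 0. The summed level of macrophage markers was highest in the same 2 libraries, at 981 CPM in CCSP/TGFalpha replicate 2 and 817 CPM in CCSP/- replicate 1. It was 473 to 719 CPM in the other 4. Mrc1 was the largest part of each sum, and only Adgre1, Cd68 and Mrc1 had their highest values in these 2 libraries. Csf1r, Marco, Siglecf, C1qa and C1qb did not. In CCSP/- replicate 1 C1qa (39.6 CPM) and C1qb (40.1 CPM) were below every CCSP/TGFalpha library. The part of macrophages in the Cd44 values was not tested.

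Stab1 (gene ID 192187; chromosome 14, 31139017 to 31168651) encodes stabilin-1, a scavenger receptor of macrophages and some endothelium from the family that takes up hyaluronan. It was at 46.6, 65.1 and 55.9 CPM in CCSP/TGFalpha lungs and at 42.5, 82.6 and 58.1 CPM in CCSP/- lungs. All CCSP/TGFalpha values lay inside the CCSP/- range, with a log2 fold change of -0.13 (95% interval -0.70 to 0.44; edgeR adjusted p = 0.770). Of 8 macrophage markers C1qa and C1qb rose and none fell. Exons of Stab1 and of Nt5dc2 on the opposite strand overlap by 112 bases. Its relative Stab2 had 0 to 7 counts in any library.

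Lyve1, the hyaluronan receptor of lymphatic vessels, was the 1 gene among 6 tested receptors and binders outside the members that fell, beside 3.29% of all genes tested. It was at 45.7, 28.8 and 41.6 CPM in CCSP/TGFalpha lungs, against 75.5, 81.4 and 108 CPM in CCSP/- lungs, with no overlap (log2 fold change -1.19 ± 0.22; edgeR adjusted p = 0.0196). The call was lost without CCSP/- replicate 2 (0.0672), CCSP/- replicate 3 (0.0905) or CCSP/TGFalpha replicate 2 (0.0509), all edgeR adjusted p. The summed level of 4 lymphatic markers was 119 to 137 CPM in CCSP/TGFalpha lungs and 160 to 208 CPM in CCSP/- lungs, and 1 of the 4, Ccl21a, fell. Most of each sum was Pdpn, at 77.8 to 94.6 CPM in CCSP/TGFalpha lungs and 103 to 133 CPM in CCSP/- lungs. Prox1 did not exceed 3.05 CPM in any library, so the sum mainly follows Pdpn, which did not pass. In 6 endothelial markers the sums were 921 to 1677 CPM in CCSP/TGFalpha lungs and 1778 to 3214 CPM in CCSP/- lungs, and 3 fell. The part of these cells in the Lyve1 and Hyal1 values was not tested, and in whole lung fewer cells of a type cannot be told apart from less RNA per cell. Hmmr, the motility receptor that also marks dividing cells, was at 21.6, 21.2 and 19.2 CPM in CCSP/TGFalpha lungs and 16.9, 15.3 and 16.0 CPM in CCSP/- lungs and did not pass (edgeR adjusted p = 0.160). Of 4 cell division markers 2, Cdk1 and Ccnb1, rose, and their part in the Hmmr values was not tested. Layn, Habp4, Tlr2 and Tlr4 had log2 fold changes between -0.19 and 0.27.

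Among 7 proteases known to cut lecticans, 2 rose, beside 5.03% of all genes tested. Adamts4 had 100, 187 and 120 counts in CCSP/TGFalpha lungs, against 16, 30 and 11 counts in CCSP/- lungs (log2 fold change 2.75 ± 0.47; edgeR adjusted p = 0.0155). Adamts9 was at 55.2, 58.1 and 74.8 CPM in CCSP/TGFalpha lungs, against 18.5, 30.6 and 28.8 CPM in CCSP/- lungs (log2 fold change 1.27 ± 0.22; edgeR adjusted p = 0.0162). The groups were apart for both genes. Without CCSP/- replicate 3 neither passed (edgeR adjusted p = 0.0751 and 0.0733), nor did Adamts4 without CCSP/TGFalpha replicate 2 (0.0549) or Adamts9 without CCSP/- replicate 2 (0.0513). Adamts5 and Adamts20 also had no overlap, with log2 fold changes of 0.61 and 0.74, and missed the threshold (edgeR adjusted p = 0.116 and 0.166). Of all tested genes, 17.7% had every CCSP/TGFalpha library above every CCSP/- library. Adamts1, Adamts8 and Adamts15 had log2 fold changes of 0.11, -0.64 and 0.09.

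**Figure D4:**
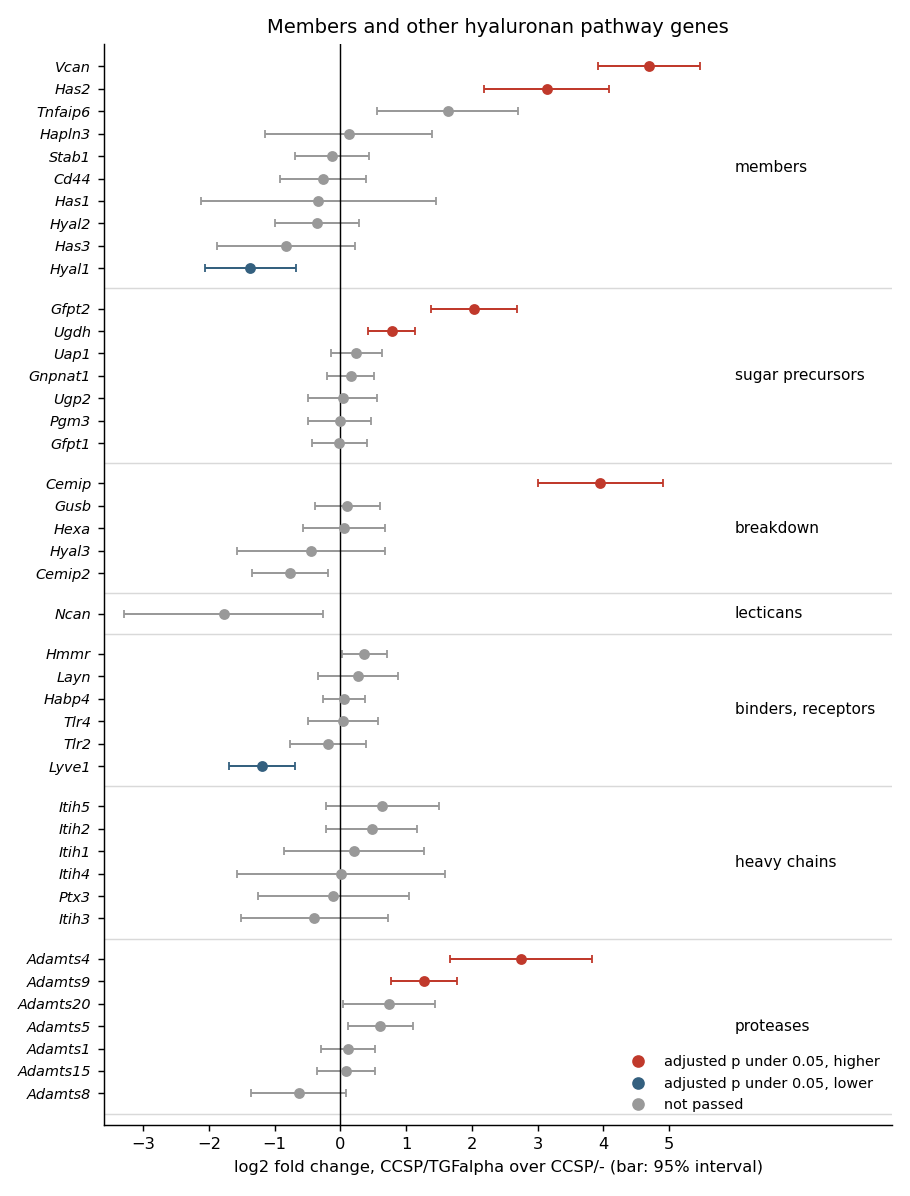
Log2 fold change of CCSP/TGFalpha over CCSP/- lungs (x axis; bars are 95% intervals) for the 10 members and the other pathway genes tested, bar 1 not reported here, grouped by role; red passed an adjusted p of 0.05 upward, blue downward, grey did not pass. Vcan, Cemip, Has2 and Adamts4 lie farthest to the right with intervals clear of 0, and Has1 has the widest interval among the members.

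Fibroblast markers were followed because fibroblasts are a known source of versican and hyaluronan. Their summed level was 2653, 2943 and 1956 CPM in CCSP/TGFalpha replicates 1 to 3 and 835, 907 and 855 CPM in CCSP/- replicates 1 to 3. Of 6 markers, Col1a2, Dcn and Lum rose, while Pdgfra, Pdgfrb and Tcf21 did not pass, with log2 fold changes of 0.29, -0.04 and -0.61. CCSP/TGFalpha replicate 2 was highest for this sum, as it was for Vcan and Has2, and CCSP/TGFalpha replicate 3 lowest. The part of fibroblast number in the Vcan and Has2 values was not tested.

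**Figure D5:**
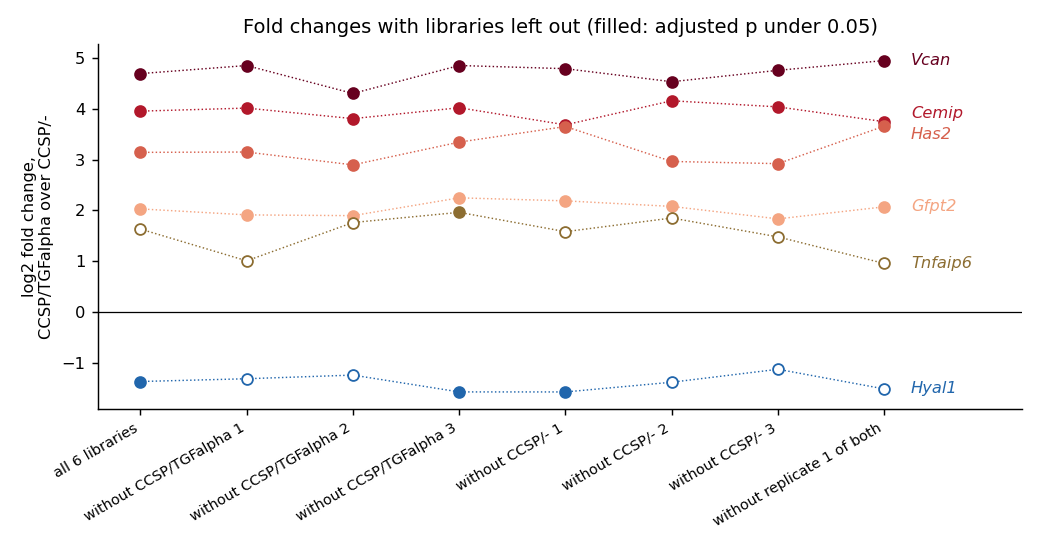
Log2 fold change (y axis) of Vcan, Cemip, Has2, Gfpt2, Tnfaip6 and Hyal1 with all 6 libraries and with the library or libraries named on the x axis left out; filled points passed an adjusted p of 0.05 with edgeR. Vcan, Cemip, Has2 and Gfpt2 are filled at every position, Hyal1 is open at 5 of 8 and Tnfaip6 at 7 of 8.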

How the data were processed

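The table the authors deposited holds raw counts, whole numbers for 24061 Entrez gene IDs in 6 libraries, made from lung RNA extracted with a column kit, per the labels' protocols. The submitters' processing notes name bcl2fastq, CASAVA 1.8, TopHat, DESeq and the build mm10; no source used here gives the counting tool, annotation or strand setting, so overlapping genes are uncertain. Table columns were matched to samples by their description labels. IDs were paired with symbols through RefSeq on GRCm38.p6 (the mm10 build), which named 23976 of 24061. The 85 unnamed IDs, 1.73 to 3.80% of counts per library, stayed in totals and tests.

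Groups were compared with edgeR 4.0.16 (R 4.3.3), by its quasi-likelihood test over all 16089 genes that passed its expression filter by group, with TMM scaling, group as the only term, and Benjamini-Hochberg adjustment at 0.05, two-sided. CPM uses the scaled library sizes, 1 count being 0.0401 to 0.0458 CPM. All 10 members passed the filter. SE and 95% intervals come from the coefficient and F statistic. An exact permutation test of 3 against 3 libraries cannot go below 0.10 and was not used. Levels per kilobase divide CPM by the union of exons in GENCODE M21. Libraries of a group differed by more than sampling noise (chi-square over degrees of freedom 48.6 or more). The fit was tested on simulated counts. The members and all gene lists were chosen with earlier results of these data known. Named pathway genes are those passing the test, up to 4 for each role, and the gene with the smallest adjusted p in a role with none; other genes given with values were named after these were seen. The values of 1 tested pathway gene, which did not pass, are not reported here; it is kept in the counts.

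Alternatives were DESeq2 size factors, library totals, no filter, a filter of 1 CPM in 3 libraries, DESeq2 1.42.0, limma-voom (limma 3.58.1), a replicate block, a robust fit, the 20 most abundant genes left out, each library left out, replicate 1 of both groups left out, a threshold of 0.01 on the adjusted p, and a null of changes up to 1.5-fold.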

Additional observations from a re-analysis of the deposited data

How the results depend on the processing

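Has2, Vcan, Gfpt2 and Cemip kept their direction and passed in every alternative tried. All scalings, both filters, limma-voom and the robust fit kept 3 members called. The members called were 4 with DESeq2, which added Tnfaip6, 2 to 4 with 1 library left out, and 2 at an adjusted p of 0.01, against a 1.5-fold change or with replicate 1 of both groups left out. In these last 3 settings 0 members passed downward by edgeR, where 1 had an unadjusted p under 0.05 and DESeq2 called 1; with 1 library left out it was 0 to 1. Other pathway genes called, 6 in all, were 2 at an adjusted p of 0.01, 3 against a 1.5-fold change and 2 to 6 with 1 library left out; those called upward were 2, 3 and 2 to 5 in the same settings. Those called downward were 2 with DESeq2, 0 at an adjusted p of 0.01 (3 at an unadjusted p under 0.05), 0 against a 1.5-fold change (2 unadjusted) and 0 to 1 with 1 library left out. Over all genes, 1340 calls became 2506 with DESeq2, 260 at an adjusted p of 0.01, 294 against a 1.5-fold change, 473 with replicate 1 of both groups left out and 238 to 1088 with 1 library left out. Genes far from the threshold changed sign: with 1 library left out the log2 fold change ran from -0.99 to 0.14 for Has1, from -0.060 to 0.28 for Hapln3 and from -0.34 to 0.15 for Stab1, and Cd44 was at 0.069 with replicate 1 of both groups left out; the cause was not tested. With the replicate number as a block 1470 genes, 3 members and 6 other pathway genes passed; same-numbered libraries correlated at 0.42, -0.05 and 0.22 in their deviations from the group means, and CCSP/TGFalpha replicate 3 correlated best with CCSP/- replicate 2 (0.38), so the numbers were not taken as pairs. The pair at 0.42 is replicate 1 of both groups, the libraries with the muscle markers. Low counts limit Hapln3, Ncan and the 12 pathway genes not tested.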
